A study of Neurospora crassa with 3 samples.

Results

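Of the 8 genes described here, 7 belong to the heterochromatin and DNA methylation machinery of the filamentous fungus Neurospora crassa, and 1 gene of histone H3K4 methylation was added for contrast. They were taken by locus tag, with earlier results of these data known, and are 8 of the 9730 genes in the count tables. dim-5 (NCU04402), dim-7 (NCU04152) and dim-9 (NCU01656) belong to H3K9 methylation. hpo (NCU04017), cdp-2 (NCU00738) and hda-1 (NCU01525) belong to the reading of that mark and to histone deacetylation, dim-2 (NCU02247) is the DNA methyltransferase, and set-1 (NCU01206) is the H3K4 methyltransferase.

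In Neurospora, DIM-5 methylates histone H3 on lysine 9 as part of a complex with DIM-7, DIM-9, the cullin CUL4 and the DDB1-type protein DIM-8. Heterochromatin protein HP1, the product of hpo, binds the methylated lysine and brings the DNA methyltransferase DIM-2 to it. HP1 also works with CDP-2, the histone deacetylase HDA-1 and CHAP in a complex that silences heterochromatin. SET-1 methylates lysine 4 of histone H3, a mark of active genes.

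Poly-A RNA was sequenced from 3 genotypes with 2 libraries each, labelled set-2 H3G34R, set-2 ash1(Y888F) and H3G34R. H3G34R replaces glycine 34 of histone H3, near lysine 36; set-2 and ash1 encode H3K36 methyltransferases, and ash1(Y888F) is a substitution in ASH1. All cultures were labelled mycelia, with germinated conidia as the source, and grew for 18 h at 32 °C with shaking in Vogel's liquid medium. The H3G34R libraries came from strains N5247 (replicate 1) and N5248 (replicate 2), the set-2 ash1(Y888F) libraries from N6266 and N6267, and both set-2 H3G34R libraries from the single strain N6777. Nothing says that the 2 libraries of N6777 came from separate cultures, so p-values measure only the spread between libraries, which may be technical in that genotype. Every group carries at least 1 mutation, and the wild-type libraries behind the authors' own comparisons were not analysed here.

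Sense reads in genes numbered 7.52 to 9.83 M (M, 1000000 reads) per library and antisense reads 0.295 to 0.341 M. The libraries labelled set-2 H3G34R stood apart in mapping, with 1.31% and 1.61% of reads unmapped against 3.03% to 4.23% in the others. The set-2 gene went against its label: although the study's design names a set-2 deletion in both set-2 genotypes, its sense level was 27.6 ± 4.90 CPM (SD, n = 2) in H3G34R, 30.2 ± 0.00453 in set-2 H3G34R libraries and 20.7 ± 3.48 in set-2 ash1(Y888F) ones. Every direction given below therefore rests on these labels. CPM is reads scaled to a library of 1000000 reads, with library sizes adjusted by TMM. A summed level of 6 conidial and aerial markers (con-6, con-8, con-10, con-13, eas and fl), each with reads in all 6 libraries, ranged from 615 to 1293 CPM in set-2 H3G34R libraries, from 265 to 348 in set-2 ash1(Y888F) ones and from 174 to 238 in H3G34R ones. The sum hides differences between the markers, and eas alone gave 164 and 658 CPM in the set-2 H3G34R libraries. In set-2 ash1(Y888F) libraries con-10 (mean 8.38 against 46.4 CPM) and con-13 (0.210 against 1.87) lay below H3G34R. The means of the other markers lay above it. The part of these markers and of the mapping difference in the results below was not tested, and a lower level in whole cultures cannot tell fewer cells of a type from less RNA per cell.

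Per kilobase of gene span, hpo had the highest level of the 8 genes in all 3 genotypes, at 42.0 ± 0.769 CPM per kb in H3G34R, 30.0 ± 2.23 in set-2 H3G34R libraries and 39.9 ± 5.21 in set-2 ash1(Y888F) ones (SD, n = 2). In H3G34R it was followed by hda-1 at 20.5 and set-1 at 19.4 CPM per kb, whose libraries overlapped, then by cdp-2 at 14.2 and dim-5 at 12.0. The lowest places went to dim-9 at 8.89, dim-2 at 8.41 and dim-7 at 8.36 CPM per kb, each overlapping its neighbour in the order. In the libraries labelled set-2 ash1(Y888F), hda-1 at 10.5, cdp-2 at 10.4 and set-1 at 10.3 CPM per kb overlapped in second place. There dim-7 at 7.95 stood above dim-5 at 6.62 and dim-2 at 6.47, which overlapped, and dim-9 was last at 5.20 CPM per kb. In the libraries labelled set-2 H3G34R, cdp-2 at 13.8 and set-1 at 10.1 CPM per kb followed hpo. hda-1 at 8.25 and dim-7 at 8.21 overlapped behind them, and dim-2 at 7.30, dim-5 at 6.67 and dim-9 at 6.62 CPM per kb formed an overlapping last group. Gene spans include introns, so these levels are per length of the annotated gene, not of the mature RNA.

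**Figure D1:**
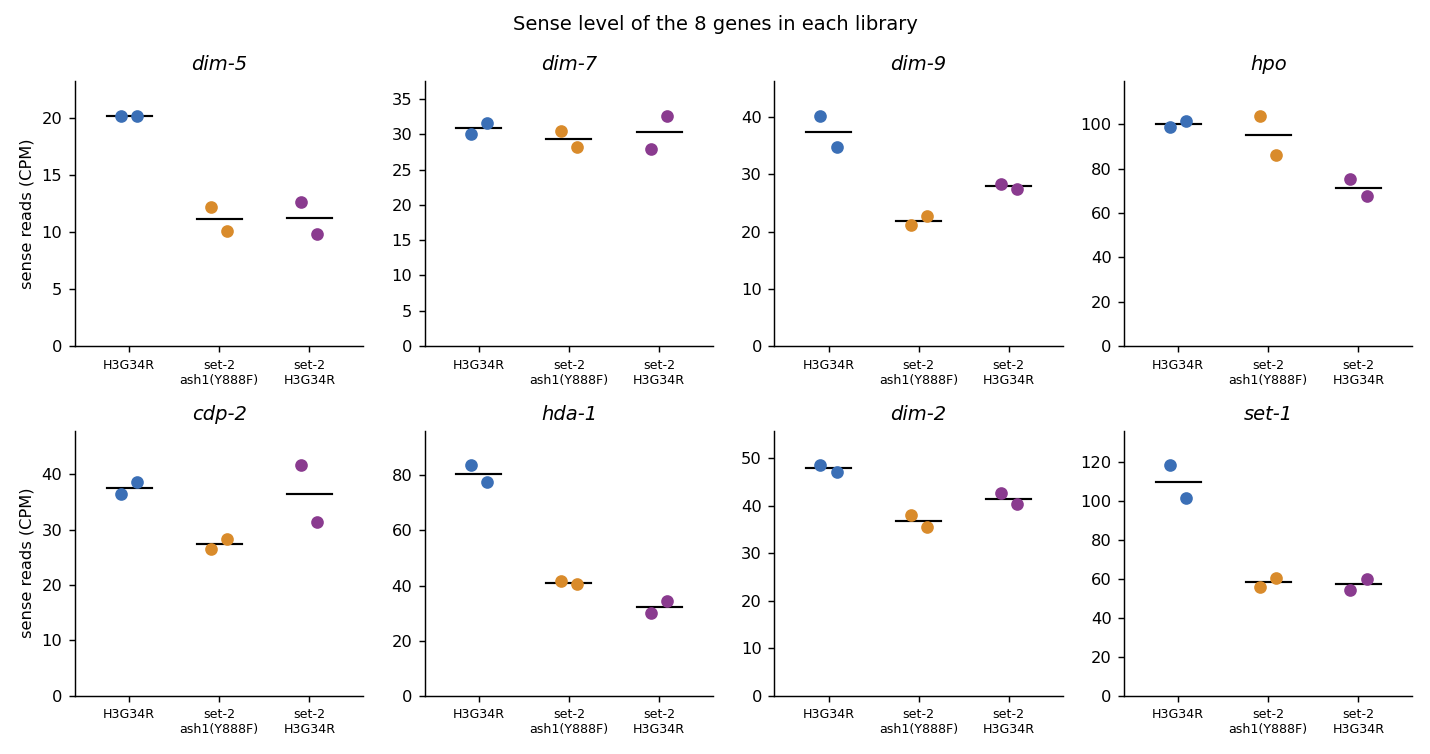
Sense level in CPM (vertical axis from 0, a scale of its own in each panel) of the 8 genes in the 2 libraries of each genotype (points), with the mean as a line. hda-1 and set-1 sit lower in all 4 libraries labelled set-2 than in both H3G34R libraries, while the points of dim-7 lie between 28.0 and 32.7 CPM throughout.

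In edgeR's quasi-likelihood test (Benjamini-Hochberg adjusted p under 0.05 over 8561 genes), 5 of the 8 genes were lower and 0 higher in the libraries labelled set-2 H3G34R than in H3G34R, where 61.7% of all genes tested passed, 31.1% as lower and 30.7% as higher. In those labelled set-2 ash1(Y888F), 5 of the 8 were lower and 0 higher, against 51.8% of all genes passing, 25.5% as lower and 26.3% as higher. All 8 values were below 0 in both, but some lay near 0. These were dim-7 at -0.03 and -0.07, cdp-2 at -0.04 in the first and hpo at -0.08 in the second. The values of dim-7 and cdp-2 in the first and of hpo in the second changed sign in some fits without 1 library. Without set-1 the counts were 4 of 7 in each. The median log2 difference of the 8 genes was -0.46 in the first comparison, against -0.01 over all genes tested, and -0.61 in the second, against 0.00. Libraries did not overlap for 6 of the 8 genes in each, where 85.9% and 78.3% of all genes did not overlap. Both comparisons use the same 2 H3G34R libraries, so they are not independent. Thus 62.5% of the 8 genes passed in each comparison, beside 61.7% and 51.8% of all genes, and those that passed were all lower. The first count was 3 without H3G34R replicate 1 or replicate 2 and 2 without set-2 H3G34R replicate 2, and the second was 3 without H3G34R replicate 1 or replicate 2. hda-1 and set-1 passed in both comparisons under every alternative tried.

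Among the H3K9 methylation genes, dim-5, the catalytic subunit, had 20.2 and 20.2 CPM in the 2 H3G34R libraries, 12.6 and 9.88 in libraries labelled set-2 H3G34R and 12.2 and 10.1 in libraries labelled set-2 ash1(Y888F). Both H3G34R libraries were above all 4 others. It was the least read of the 8 genes, with 68 to 211 sense reads per library. The log2 difference from H3G34R was -0.84 (SE 0.193, adjusted p = 0.00845) in set-2 H3G34R and -0.86 (SE 0.197, adjusted p = 0.0111) in set-2 ash1(Y888F) by edgeR's quasi-likelihood test. The first call was lost without set-2 H3G34R replicate 2 (adjusted p = 0.0613), and the second without H3G34R replicate 1 (0.0575) or 2 (0.0547).

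dim-9, a WD40-repeat subunit of the same complex, had 40.3 and 34.7 CPM in H3G34R, 28.4 and 27.5 in libraries labelled set-2 H3G34R and 21.1 and 22.7 in libraries labelled set-2 ash1(Y888F). The 3 genotypes did not overlap, and the libraries labelled set-2 H3G34R lay between the others. dim-9 was lower than in H3G34R at a log2 difference of -0.77 (SE 0.144, edgeR adjusted p = 0.00479) in set-2 ash1(Y888F), a call that held without each library in turn. The difference in set-2 H3G34R was -0.43 (SE 0.141, edgeR adjusted p = 0.0348). That call was lost without H3G34R replicate 1 (0.203) or 2 (0.0563), without set-2 H3G34R replicate 1 (0.101) or 2 (0.138), and with DESeq2 (0.0533). Between the 2 set-2 genotypes the value was 0.35 (95% interval 0.00220 to 0.696, edgeR adjusted p = 0.101), which did not pass.

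dim-7, which recruits DIM-5, varied least of the 8 genes, with a range of 1.17-fold over the 6 libraries. It had 30.1 and 31.7 CPM in H3G34R, 28.0 and 32.7 in libraries labelled set-2 H3G34R and 30.5 and 28.2 in libraries labelled set-2 ash1(Y888F). All genotypes overlapped. The log2 differences from H3G34R were -0.07 (95% interval -0.415 to 0.271, edgeR adjusted p = 0.696) in set-2 ash1(Y888F) and -0.03 (95% interval -0.366 to 0.311, edgeR adjusted p = 0.878) in set-2 H3G34R. Of the 3 subunit genes of the H3K9 methyltransferase, dim-5 and dim-9 passed in both comparisons with H3G34R and dim-7 in neither; the difference between these genes was not tested.

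hpo, the gene of HP1, was the 1 gene of the 8 that passed in the comparison of the 2 set-2 genotypes. Its level was 98.9 and 101.5 CPM in H3G34R, 75.2 and 67.7 in libraries labelled set-2 H3G34R and 103.8 and 86.3 in libraries labelled set-2 ash1(Y888F). The set-2 H3G34R libraries were below the other 4, which overlapped. The log2 difference of set-2 H3G34R from H3G34R was -0.49 (SE 0.125, edgeR adjusted p = 0.0134). Leaving out set-2 H3G34R replicate 2 (0.0907), H3G34R replicate 1 (0.0594) or H3G34R replicate 2 (0.0720) ended that call. Against set-2 ash1(Y888F) it was -0.41 (SE 0.126, edgeR adjusted p = 0.0405), lost in 5 of the 6 fits that left out a library, with adjusted p between 0.0820 and 0.198, and kept without set-2 ash1(Y888F) replicate 2 (0.00881). The level in set-2 ash1(Y888F) differed from that in H3G34R by -0.08 (95% interval -0.373 to 0.222, edgeR adjusted p = 0.634).

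cdp-2, a chromodomain protein, did not pass in any comparison. It had 36.4 and 38.6 CPM in H3G34R, 41.6 and 31.3 in libraries labelled set-2 H3G34R and 26.6 and 28.4 in libraries labelled set-2 ash1(Y888F). The set-2 ash1(Y888F) libraries were below the other 4, and the 2 set-2 H3G34R libraries, 1.33-fold apart, showed the widest replicate ratio of the 24 pairs (median 1.08). The value in set-2 ash1(Y888F) against H3G34R was -0.45 (95% interval -0.852 to -0.0461, edgeR adjusted p = 0.0615). It passed where only these 2 genotypes were fitted (0.0419) and without set-2 H3G34R replicate 1 (0.0490) or 2 (0.0479). The value in set-2 H3G34R was -0.04 (95% interval -0.433 to 0.354, edgeR adjusted p = 0.848).

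hda-1, the histone deacetylase, had the largest difference of the 8 genes in both comparisons with H3G34R. Its level was 83.7 and 77.6 CPM in the H3G34R libraries, 30.2 and 34.6 in libraries labelled set-2 H3G34R and 41.6 and 40.5 in libraries labelled set-2 ash1(Y888F). The 3 genotypes did not overlap. The log2 difference from H3G34R was -1.32 (SE 0.121, edgeR adjusted p = 2.21e-04) in set-2 H3G34R and -0.97 (SE 0.120, edgeR adjusted p = 9.46e-04) in set-2 ash1(Y888F). Both calls held in all alternatives, including every fit without 1 library. The further step between the 2 set-2 genotypes, -0.34 (95% interval -0.637 to -0.0523, edgeR adjusted p = 0.0653), did not pass.

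dim-2, the DNA methyltransferase gene, had 48.5 and 47.2 CPM in H3G34R, 42.7 and 40.3 in libraries labelled set-2 H3G34R and 38.1 and 35.5 in libraries labelled set-2 ash1(Y888F). The genotypes did not overlap, but the steps were small. The difference from H3G34R was -0.38 (SE 0.118, edgeR adjusted p = 0.0335) in set-2 ash1(Y888F). It was lost with DESeq2 (0.0640) and in 5 of the 6 fits without 1 library, every one but that without set-2 ash1(Y888F) replicate 1, with adjusted p between 0.0617 and 0.146. In set-2 H3G34R it was -0.20 (95% interval -0.481 to 0.0724, edgeR adjusted p = 0.166).

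set-1, the H3K4 methyltransferase gene taken for contrast, was also lower in both set-2 genotypes than in H3G34R. It had 118.3 and 101.3 CPM in H3G34R, 54.1 and 60.2 in libraries labelled set-2 H3G34R and 56.0 and 60.4 in libraries labelled set-2 ash1(Y888F). The 2 set-2 genotypes overlapped, and both H3G34R libraries were above them. The log2 difference was -0.94 (SE 0.123, edgeR adjusted p = 8.33e-04) in set-2 H3G34R and -0.92 (SE 0.124, edgeR adjusted p = 0.00137) in set-2 ash1(Y888F), both kept in all alternatives.

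**Figure D2:**
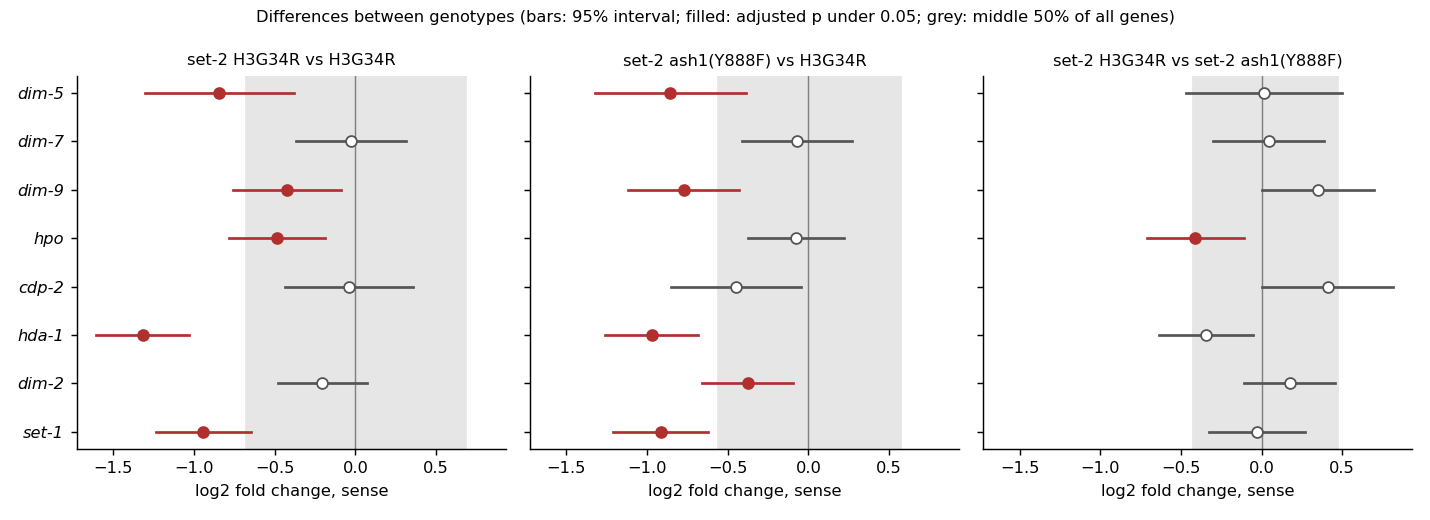
Log2 fold change of sense reads (horizontal axis) for the 8 genes in the 3 comparisons of genotypes, with 95% intervals as bars. Filled points have an edgeR adjusted p under 0.05, and the grey band holds the middle 50% of all 8561 genes. hda-1 lies at -1.32 and -0.97 in the comparisons with H3G34R, and hpo alone is filled in the comparison of the 2 set-2 genotypes.

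Between set-2 H3G34R and set-2 ash1(Y888F), hpo was the only 1 of the 8 genes past the threshold, where 38.1% of all genes passed and 19.9% passed as lower. Libraries did not overlap for 5 of the 8, against 71.5% of all genes. The median log2 difference of the 8 was 0.03, against 0.02 over all genes. dim-5 at 0.01 (95% interval -0.472 to 0.497), dim-7 at 0.04 (-0.299 to 0.389) and set-1 at -0.03 had the smallest values. The largest positive value was that of cdp-2, 0.41 (95% interval 0.00536 to 0.814, edgeR adjusted p = 0.0991).

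Levels of the 8 genes across the 6 libraries were compared on log2(CPM + 1), as a description over libraries that share genotypes. Pearson's r between pairs ran from -0.14 for hpo and cdp-2 to 0.97 for hda-1 and set-1, with a median of 0.62 over the 28 pairs. dim-9 and dim-2 followed each other at 0.95, and dim-5 and set-1 at 0.90. Of all other genes tested, the gene nearest to each in its centred profile was NCU03331 for dim-5, NCU04507 for dim-7, NCU03406 for dim-9, NCU03315 for hpo, NCU00213 for cdp-2, NCU07433 for hda-1, NCU01249 for dim-2 and NCU06248 for set-1, at root-mean-square distances of 0.0137 to 0.0637. The closest was NCU03315, whose 70.8, 95.6 and 101 CPM in set-2 H3G34R, set-2 ash1(Y888F) and H3G34R stood beside the 71.4, 95.1 and 100.2 CPM of hpo.

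Antisense reads were few at most of the 8 genes, and only 3 of the 8 (dim-7, hda-1 and dim-2) had enough to be tested. dim-9 had 0 to 5 antisense reads per library, hpo 0 to 6, set-1 3 to 16, cdp-2 0 to 12 and dim-5 1 to 17. cdp-2 had 0 in both H3G34R libraries, where a count of 0 allows up to 0.289 and 0.287 CPM, and 12 in set-2 H3G34R replicate 1 alone of the 6. At dim-5 antisense made up 0.474% (exact 95% interval 0.0120 to 2.61) of its reads in H3G34R replicate 1 and 16.2% (9.72 to 24.7) in set-2 H3G34R replicate 2, the lowest and highest of its libraries. The median over all genes tested was 0.922% to 1.59% per library. These intervals cover counting error only.

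In set-2 H3G34R against H3G34R, 3 of the 3 genes tested had higher antisense levels, where 40.8% of 4299 genes passed and 26.5% passed as higher. Of these, dim-2 met the read filter only through the set-2 H3G34R libraries, where it is high. Its result is thus not independent of the filter and adds no support to that count. The same holds for its comparison with set-2 ash1(Y888F). At dim-2 the antisense reads numbered 6 and 1 in H3G34R, 15 and 14 in libraries labelled set-2 H3G34R and 4 and 4 in libraries labelled set-2 ash1(Y888F). The difference was 2.15 (SE 0.646, edgeR adjusted p = 0.0102), lost without H3G34R replicate 2 (0.171), set-2 H3G34R replicate 1 (0.0874) or replicate 2 (0.0767). The antisense share of dim-2 reached no more than 3.75% in any library. At hda-1, antisense numbered 12 and 25 reads in H3G34R, 40 and 28 in set-2 H3G34R and 16 and 23 in set-2 ash1(Y888F). The first 2 genotypes differed by 1.01 (SE 0.399, edgeR adjusted p = 0.0463), lost without H3G34R replicate 1 (0.344), set-2 H3G34R replicate 1 (0.246) or replicate 2 (0.0808), and with no filter (0.102). dim-7 was higher by 0.83 (SE 0.228, edgeR adjusted p = 0.00570), lost without H3G34R replicate 2 (0.0728) or set-2 H3G34R replicate 1 (0.121). Most antisense reads of dim-7 were also counted as sense reads of an overlapping gene, NCU04151, as described below. The median difference over all genes tested was 0.21. With DESeq2 none of the 3 passed (dim-7 0.0506, dim-2 0.142, hda-1 0.252), and 0 passed without set-2 H3G34R replicate 1. In set-2 ash1(Y888F) against H3G34R, 1 of the 3, dim-7, was higher by 0.94 (SE 0.231, edgeR adjusted p = 0.00226), where 45.5% of genes passed and 39% passed as higher. The median over all genes was 0.78 in that comparison. Scaling by the antisense reads' own library sizes shifted the all-gene median by -0.36 in the first comparison and -0.81 in the second, and by 0.44 between the set-2 genotypes. Higher calls then made up 47.0%, 47.1% and 53.0% of all antisense calls, against 64.9%, 85.8% and 24.6%. On that scale dim-2 alone passed in the first comparison and 0 of the 3 in the second, where dim-7 was at 0.20 (edgeR adjusted p = 0.554). In the comparison of the 2 set-2 genotypes 0 of 3 passed with edgeR's quasi-likelihood test, against 37.5% of all genes. There dim-2 had an unadjusted p of 0.0374 (adjusted 0.0849), the 1 of the 3 under 0.05. It passed in that comparison with antisense library sizes (edgeR adjusted p = 0.0343) and with only the 2 set-2 genotypes in the fit (0.0398). DESeq2 called 0 and gave dim-2 no adjusted p.

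The antisense reads of dim-7 stood beside those of another gene. By the reference table of assembly NC12, dim-7 shares 690 bases, 18.7% of its span, with NCU04151. dim-7 had 89 and 78 antisense reads in H3G34R, 158 and 111 in set-2 H3G34R and 114 and 104 in set-2 ash1(Y888F), which were 19.1% to 36.3% of its reads. In H3G34R 87 and 79 of its reads, in set-2 H3G34R 151 and 109, and in set-2 ash1(Y888F) 117 and 108 were missing from the column counted without strand, which leaves out reads in a place shared by 2 genes. NCU04151 itself rose on its sense strand, from 18.5 ± 0.375 CPM in H3G34R to 30.0 ± 4.45 in set-2 H3G34R libraries and 33.7 ± 3.54 in set-2 ash1(Y888F) ones (SD, n = 2), by 0.70 (edgeR adjusted p = 0.00981) and 0.87 (0.00541) on the log2 scale. The same numbers of reads were missing for NCU04151 in each library. NCU04151 had few antisense reads, 6 and 6 in H3G34R, 4 and 8 in set-2 H3G34R and 9 and 8 in set-2 ash1(Y888F). A shared read counted as antisense at dim-7 is counted as sense at NCU04151. Most antisense reads of dim-7 were thus also counted as sense reads of NCU04151, so these levels are not independent. Which gene the RNA of these reads came from was not tested.

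hda-1 shares 788 bases, 20.1% of its span, with NCU01526. Of its reads, 27.0% to 39.0% were missing from the column counted without strand. NCU01526 had 14 to 49 sense reads and 75 to 256 antisense reads per library. Its sense level was higher than in H3G34R by 1.40 (log2, edgeR adjusted p = 0.00943) in set-2 H3G34R. In set-2 ash1(Y888F) the difference was 0.88 (edgeR adjusted p = 0.0776), which did not pass. Whether the antisense reads of hda-1 are reads of NCU01526 was not tested. On the column without strand hda-1 was still lower than in H3G34R, at a log2 difference of -1.33 (edgeR adjusted p = 2.31e-04) in set-2 H3G34R and -1.14 (5.87e-04) in set-2 ash1(Y888F). The other 6 genes overlap no gene in the reference table, and their strand columns summed to the column without strand.

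**Figure D3:**
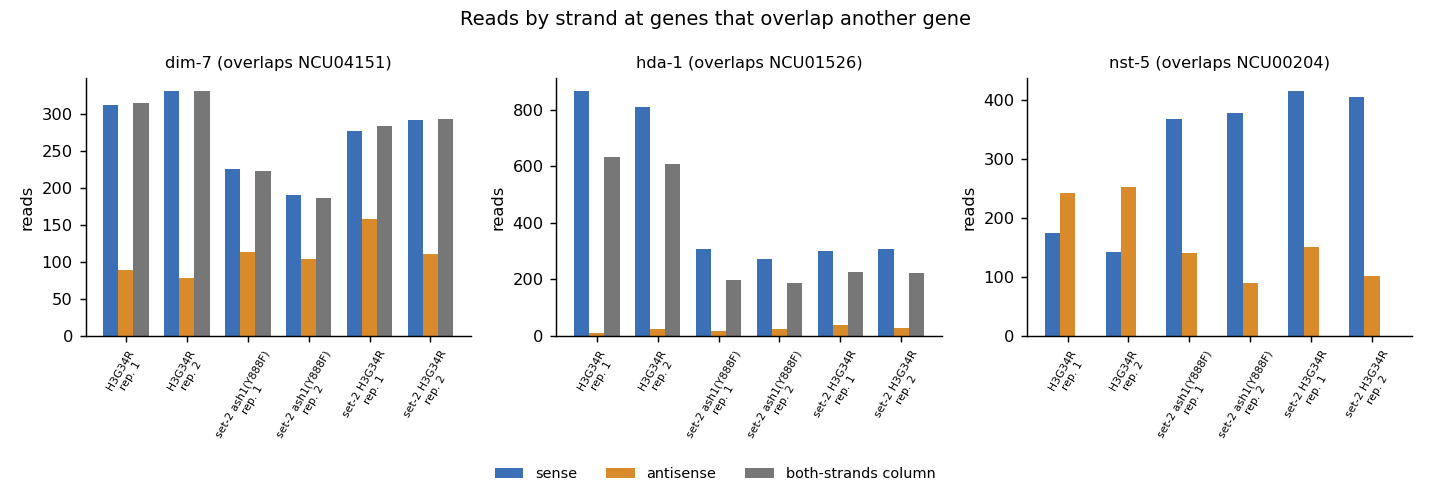
Reads per library (vertical axis, from 0) at dim-7, hda-1 and nst-5, each of which overlaps another gene, for the sense column, the antisense column and the column counted without strand. dim-7 has 78 to 158 antisense reads, and nst-5 has 0 reads in the column without strand in all 6 libraries.

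Of 19 other genes of heterochromatin, DNA methylation and histone deacetylation, 6 were higher and 5 lower in set-2 H3G34R than in H3G34R by edgeR's quasi-likelihood test, and 8 did not pass, so 57.9% passed against 61.7% of all genes. In set-2 ash1(Y888F), 5 were higher, 7 lower and 7 did not pass (63.2% against 51.8%). The median log2 difference was -0.04 in the first and -0.26 in the second, against -0.01 and 0.00 over all genes. Between the 2 set-2 genotypes 3 were higher and 2 lower in set-2 H3G34R (26.3% against 38.1%). This last count was 1 without set-2 H3G34R replicate 1 and 1 without replicate 2, and the 12 calls in set-2 ash1(Y888F) were 7 without H3G34R replicate 1 and 7 without replicate 2.

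The widest difference in either comparison with H3G34R was that of rid-1, the DNA methyltransferase homologue needed for repeat-induced point mutation. It had 30.2 ± 1.45 CPM in H3G34R, 4.31 ± 0.248 in set-2 H3G34R libraries and 3.97 ± 0.0554 in set-2 ash1(Y888F) ones (SD, n = 2), with log2 differences from H3G34R of -2.81 (edgeR adjusted p = 7.40e-05) and -2.92 (8.89e-05). CHAP, the partner of HP1, CDP-2 and HDA-1, moved the other way from hda-1. chap had 22.7 ± 2.30 CPM in H3G34R, 40.1 ± 4.74 in set-2 H3G34R libraries and 60.2 ± 15.0 in set-2 ash1(Y888F) ones. It was higher by 0.82 (edgeR adjusted p = 0.0115) and 1.41 (0.00178), the first lost without H3G34R replicate 2 (0.0758) or set-2 H3G34R replicate 1 (0.0824). hH1, the linker histone gene, was higher by 0.96 (edgeR adjusted p = 0.00104) and 1.27 (5.29e-04) in the same order.

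Of the partner genes of DIM-5, dim-8 was lower in set-2 ash1(Y888F) at a log2 difference of -0.31 (edgeR adjusted p = 0.0475). That call was lost in 8 of 11 alternatives, among them all 6 fits without 1 library. cul-4 did not pass, at -0.14 (adjusted p = 0.334) there and -0.12 (0.373) in set-2 H3G34R. dmm-2, which helps to keep DNA methylation from spreading, was lower in set-2 ash1(Y888F) at a log2 difference of -0.42 (edgeR adjusted p = 0.0216), which ended without set-2 ash1(Y888F) replicate 2 (0.0602), H3G34R replicate 1 (0.111) or H3G34R replicate 2 (0.0892). Its partner dmm-1 did not pass, at -0.27 (adjusted p = 0.118). NCU01249, which the reference does not name, was lower in set-2 ash1(Y888F) at a log2 difference of -0.33 (edgeR adjusted p = 0.0458). That call was lost in 7 of 11 alternatives. Among them were 5 of the 6 fits without 1 library, every one but that without set-2 ash1(Y888F) replicate 1.

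Histone deacetylase genes split in direction. hda-2 was lower in set-2 H3G34R than in H3G34R at a log2 difference of -0.90 (edgeR adjusted p = 0.00530), and hda-4 higher by 0.71 (0.00283) there and by 0.49 (0.0171) in set-2 ash1(Y888F), the latter lost without H3G34R replicate 1 (0.0693) or 2 (0.107). hda-3 was lower in set-2 ash1(Y888F) at a log2 difference of -0.47 (edgeR adjusted p = 0.0275), a call lost in 6 of 11 alternatives. Among them were 5 of the 6 fits without 1 library, every one but that without set-2 ash1(Y888F) replicate 2. Among the sirtuin genes, nst-1 was lower at a log2 difference of -1.44 (edgeR adjusted p = 2.07e-04) in set-2 H3G34R and -1.22 (5.41e-04) in set-2 ash1(Y888F). nst-3 was lower at a log2 difference of -0.65 (0.00498) and -0.87 (0.00217), and nst-5 higher by 1.52 (3.50e-04) and 1.79 (2.73e-04) in the same order, by the same edgeR test. The span of nst-5 lies almost wholly within that of another gene, NCU00204. nst-7 was lower at a log2 difference of -2.13 (edgeR adjusted p = 5.27e-04) in set-2 H3G34R. nst-6, at 1.85 to 4.55 CPM on average per genotype, was higher there by 1.04 (edgeR adjusted p = 0.0161), lost with DESeq2 (0.0821) and without either H3G34R library (0.0922 and 0.0699) or set-2 H3G34R replicate 1 (0.0927). NCU09120, also without a name in the reference, was higher by 1.03 (edgeR adjusted p = 6.25e-04) in set-2 H3G34R and 0.64 (0.00587) in set-2 ash1(Y888F), the latter lost without H3G34R replicate 1 (0.0517).

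Between the 2 set-2 genotypes, hda-2 was lower in set-2 H3G34R at a log2 difference of -0.90 (edgeR adjusted p = 0.0112), lost without set-2 H3G34R replicate 1 (0.0730). nst-7 was lower at -1.49 (edgeR adjusted p = 0.00588), lost without set-2 H3G34R replicate 2 (0.0509). hda-3 was higher by 0.56 (edgeR adjusted p = 0.0207), lost without set-2 H3G34R replicate 1 (0.0958) or 2 (0.0896). nst-6 was higher by 1.30 (edgeR adjusted p = 0.0169), lost with DESeq2 (0.0513), without set-2 ash1(Y888F) replicate 1 (0.0813) and without set-2 H3G34R replicate 1 (0.0929) or 2 (0.0583). NCU09120 was higher by 0.39 (edgeR adjusted p = 0.0446), a call lost in 5 of the 6 fits without 1 library, every one but that without set-2 ash1(Y888F) replicate 2, with adjusted p up to 0.192, and also with DESeq2 (0.0940), RLE size factors (0.0531), no filter (just above the threshold) or only the genotypes compared (0.0864). chap, at -0.59 (edgeR adjusted p = 0.0558), and rid-1, at 0.12 (0.727), did not pass.

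**Figure D4:**
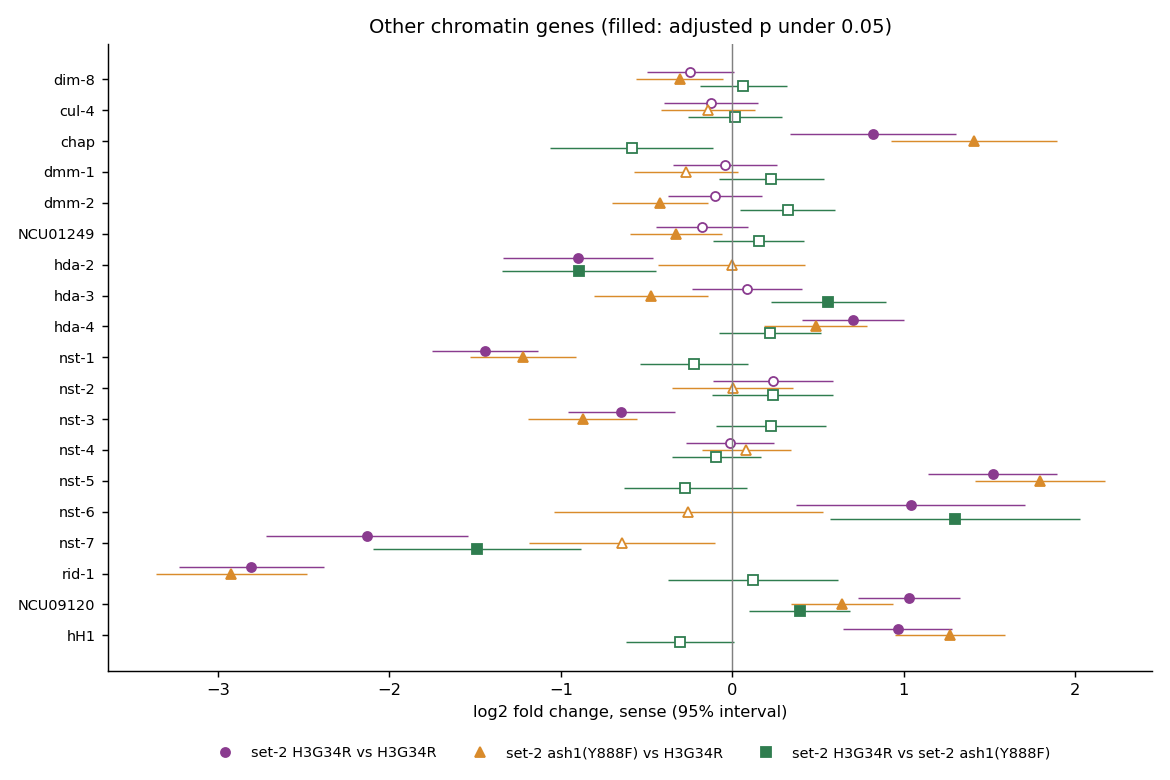
Log2 fold change of sense reads (horizontal axis, bars for 95% intervals) of the 19 other chromatin genes in the 3 comparisons, filled where the edgeR adjusted p was under 0.05. rid-1 lies at -2.81 and -2.92 in the comparisons with H3G34R, and chap, nst-5 and hH1 lie to the right of 0 in both.

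Of the 6 markers of conidia, 4 were higher and 1 lower in set-2 H3G34R than in H3G34R by edgeR's quasi-likelihood test, 0 were higher and 2 lower in set-2 ash1(Y888F), and 3 were higher in set-2 H3G34R than in set-2 ash1(Y888F). Of the 6, 83.3%, 33.3% and 50% thus passed, beside 61.7%, 51.8% and 38.1% of all genes. Among the lower calls was con-13 in both comparisons with H3G34R. It had 19 and 20 sense reads in H3G34R, 3 and 5 in set-2 H3G34R and 2 and 1 in set-2 ash1(Y888F). con-13 met the read filter only through the H3G34R libraries, where it is high. Its lower calls are thus not independent of the filter and add no support to these counts. eas, the hydrophobin gene of aerial structures, had 411 ± 349 CPM in set-2 H3G34R libraries, 53.6 ± 40.5 in set-2 ash1(Y888F) ones and 13.5 ± 8.82 in H3G34R ones (SD, n = 2). The genes of the labelled changes were also measured: the gene named set-3 in the reference, which is ash1, had 71.5 ± 0.0577, 90.9 ± 1.06 and 148 ± 0.395 CPM in the same order, and hH3, the histone H3 gene, 1251 ± 48.3, 1685 ± 169 and 1745 ± 48.3 CPM.

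Against wild type, the authors' deposited table for H3G34R gives 7 of the 8 genes as higher at an adjusted p under 0.05, where 64.5% of its genes passed and 33.6% passed as higher. Its log2 fold changes, in the authors' deposited table, are 1.56 for hpo (SE 0.143, adjusted p = 8.18e-27), 1.26 for set-1, 0.98 for dim-2, 0.87 for dim-5, 0.79 for dim-9, 0.58 for hda-1 and 0.45 for cdp-2. dim-7 is the exception, at 0.06 (adjusted p = 0.834) in the authors' deposited table. The authors' deposited table for set-2 H3G34R gives hpo at 0.92 (adjusted p = 1.83e-07) and dim-2 at 0.67 (0.00166) as higher and hda-1 at -0.87 (7.03e-05) as lower, where 51.3% of its genes passed, 24.9% as higher and 26.4% as lower. The remaining 5 lie between -0.09 and 0.29 in that authors' deposited table. In the authors' deposited table for set-2 ash1(Y888F), hda-1 at -0.88 (SE 0.283, adjusted p = 0.0155) is the 1 gene of the 8 past the threshold, where 17.3% of its genes passed and 6.42% as lower. Thus hda-1 is listed as higher than wild type in H3G34R and lower than wild type in both set-2 genotypes by the authors' deposited tables. The table for set-2 ash1(Y888F) was not on 1 scale with the other 2, as described below, so no order of genotypes is drawn. The libraries of wild type behind each table are not stated in the sources used here.

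**Figure D5:**
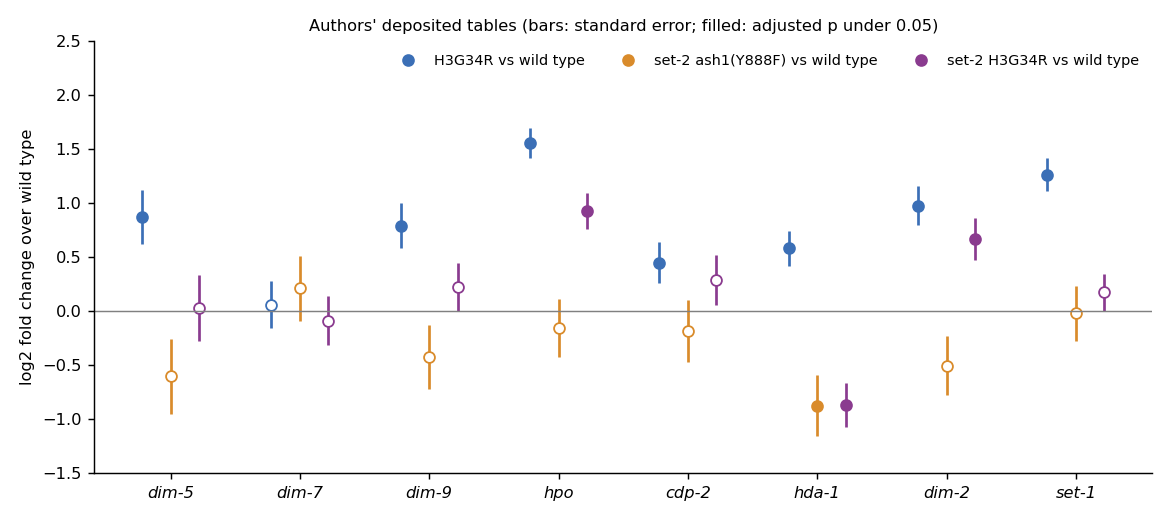
Log2 fold change over wild type (vertical axis) of the 8 genes in the authors' deposited tables for the 3 genotypes, with the authors' standard errors as bars and filled points for an adjusted p under 0.05. For H3G34R 7 of the 8 points are filled above 0, and hda-1 lies at -0.88 and -0.87 for the 2 set-2 genotypes.

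The tables for H3G34R and set-2 H3G34R were set against the direct comparison of those libraries. The edgeR values are of sense reads, while the strand column behind the authors' deposited tables is not stated in the sources used here. Their mean signal for nst-5, 0 or 0.46, was like the column without strand, which held 0 of its reads. Subtracting the log2 fold changes of the authors' deposited tables gave values within 0.145 of the edgeR values for all 8 genes (median gap 0.129, against 0.145 over all genes). For set-2 ash1(Y888F) and H3G34R the same subtraction of the authors' deposited tables left gaps of 0.186 to 1.64 (median 0.462, against 0.806 over all genes). hpo had the widest gap, at -1.72 by subtracting the authors' deposited tables and -0.08 in the direct comparison, followed by dim-2 at -1.48 and -0.38. For hda-1 the values were -1.46 by subtraction and -0.97 in the direct comparison. The set-2 ash1(Y888F) fold changes in the authors' deposited table were therefore not put on 1 scale with those of the other 2 tables. No order of the 3 genotypes against wild type is drawn from them for any of the 8 genes.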

How the data were processed

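Poly-A RNA of 3 genotypes, 2 libraries each, was counted per gene by the authors; the submitters' processing notes name STAR 2.6.0. Genome build and annotation: not given in the sources used here. The deposited raw counts have columns for both strands, antisense and sense; the 4 lines of unassigned reads (for example 9.16% to 16.1% of reads outside genes) were left out. The authors' deposited tables, with no header, hold p-values (raw and adjusted), the log2 fold change over wild type with its error, a test score, and the mean signal of normalised counts, from DESeq2 1.18.1 per the submitters' processing notes; columns were identified from the values.

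Sense counts were tested with edgeR 4.0.16 (TMM, filterByExpr by genotype, glmQLFit and glmQLFTest, two-sided) in R 4.3.3, with all 6 libraries in 1 fit, and Benjamini-Hochberg adjustment at 0.05. The common biological coefficient of variation was 14.9%. Antisense counts used the sense library sizes. Scripts were tested on simulated data. Alternatives were DESeq2 1.42.0, RLE size factors, no filter, the both-strands column, a fit of 2 genotypes, antisense library sizes and leaving out each library. Symbols, spans and overlaps came from a RefSeq table of assembly NC12, which matched 9729 of 9730 genes. Named were the 8 genes, a list of 19 related genes where they passed a test or were partners, 6 conidial markers, the nearest gene to each, overlapping genes, and the genes of the labelled genotypes. The genes and lists were chosen with earlier results of these data known.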

Additional observations from a re-analysis of the deposited data

How the results depend on the processing

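Only 2 libraries per genotype limit all calls, and the libraries of N6777 are from 1 strain. Antisense calls rest on 1 to 40 reads at hda-1 and dim-2. No paired analysis was possible because the labels give no replicate numbers: the numbers 1 and 2 follow strain or file names and tie no libraries of different genotypes together. Scaling moved the median of all genes by up to -0.0410 (log2) in sense. Leaving out a library leaves its genotype with 1, assumed to vary like the others.

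Genes called without 1 library ranged from 3803 to 5879 (set-2 H3G34R against H3G34R, 5286 with all), 2754 to 4565 (set-2 ash1(Y888F) against H3G34R, 4435) and 1388 to 3766 (set-2 H3G34R against set-2 ash1(Y888F), 3264). The 8 genes gave 2 to 5, 3 to 5 and 0 to 1 calls, and the 19 related genes 9 to 11, 7 to 10 and 1 to 7. For antisense the ranges were 1267 to 1896, 1423 to 1890 and 950 to 1695 genes, with 0 to 4, 1 to 1 and 0 to 0 of the 8. With only the 2 set-2 genotypes in the fit, 0 of the 8 passed in sense (hpo 0.0790) and 1 in antisense. DESeq2 on antisense counts called 1032, 1037 and 768 genes, against 1754, 1956 and 1611 with edgeR, and 0 of the 8 in the first comparison. With antisense library sizes the calls among the 8 were 1, 0 and 1, against 3, 1 and 0. The causes were not tested.

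Values that changed sign were all short of the threshold. They were dim-5 between the set-2 genotypes with DESeq2 (-0.000432), hda-1 antisense in set-2 ash1(Y888F) against H3G34R (-0.0948) and dim-7 antisense between the set-2 genotypes (0.289), both with antisense library sizes. Without 1 library, values ranged across 0 for dim-7 (-0.140 to 0.0692) and cdp-2 (-0.272 to 0.153) in set-2 H3G34R against H3G34R, for hpo (-0.212 to 0.0545) and dim-2 antisense (-0.0275 to 2.40) in set-2 ash1(Y888F) against H3G34R, and for dim-5 (-0.194 to 0.176), dim-7 (-0.0711 to 0.136), set-1 (-0.106 to 0.0304) and dim-7 antisense (-0.310 to 0.0459) between the set-2 genotypes.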

Other observations

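nst-5, a sirtuin gene, lies almost wholly within NCU00204 by the reference table (1830 bases, 98.7% of its span). Its sense reads numbered 175 and 142 in H3G34R, 415 and 405 in libraries labelled set-2 H3G34R and 367 and 377 in libraries labelled set-2 ash1(Y888F). NCU00204 had 177, 142, 415, 405, 368 and 380 antisense reads in the same order. The column counted without strand held 0 reads of nst-5 in all 6 libraries, and the authors' deposited tables list its mean signal as 0 for set-2 ash1(Y888F) and 0.46 for each of the other genotypes. A difference of 1.52 (log2, edgeR adjusted p = 3.50e-04) in the sense reads of set-2 H3G34R against H3G34R is therefore not in those tables.

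2 further values were chosen after they were seen. Antisense reads of set-3, the gene of ASH1, numbered 62 and 68 in the libraries labelled set-2 ash1(Y888F), against 13 and 24 in H3G34R and 5 and 6 in set-2 H3G34R. Those of hda-2 numbered 31 and 32, against 10 and 1 and 16 and 11. No overlapping gene of hda-2 is listed in the reference table.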
